A study of Homo sapiens with 4 samples.

Results

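SOX genes encode transcription factors that bind DNA through an HMG box, and 9 of them, SOX3, SOX4, SOX8, SOX9, SOX11, SOX12, SOX13, SOX15 and SOX21, were followed in NTERA2 cells. They were taken by symbol from the 26364 genes of the count tables, and SOX2 was kept apart. NTERA2 is a human embryonal carcinoma line, a tumour-derived line with the gene expression of pluripotent cells. Messenger RNA was sequenced in 4 libraries: LacZ (replicates 1 and 3), labelled BEND3 LacZ, and sh60 (replicates 1 and 2), labelled BEND3 sh60. All 4 came from the clone given as CRL-1973, grown in high-glucose DMEM with fetal bovine serum and antibiotics, and were pooled for sequencing. The group names were taken to mean a LacZ control and a hairpin, sh60, directed at BEND3, which encodes a BEN-domain repressor. Only 1 hairpin is represented. The labels do not spell this out, and the hairpin sequence, its delivery and the time of harvest are not given in these labels. They also do not say that replicates came from separate cultures, so p-values measure only the spread between these libraries, which may be technical.

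The family is divided into lettered groups by the sequence of the HMG box. Group B1 (SOX1, SOX2 and SOX3) maintains pluripotent and neural progenitor cells, and group B2 (SOX14 and SOX21) holds repressors that act against it. Group C (SOX4, SOX11 and SOX12) acts in differentiating neurons and mesenchyme, group D (SOX5, SOX6 and SOX13) in cartilage, nerve and blood cells, and group E (SOX8, SOX9 and SOX10) in neural crest, testis and cartilage. SOX15 stands alone in group G. SOX factors bind short AT-rich sites, often beside a partner such as OCT4, and closely related members can replace each other in part.

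Of the 9 genes, 3 were higher in sh60 (SOX21, SOX15 and SOX3), 4 were lower (SOX8, SOX4, SOX13 and SOX12) and 2 did not pass the test (SOX9 and SOX11). The test was edgeR's quasi-likelihood test over all 16040 genes with enough counts, at an adjusted p of 0.05, and all 9 genes were among those tested. Over the same genes 28.8% passed, 15.8% as higher and 13.0% as lower, against 7 of 9 here. The 9 genes were chosen with earlier results of these data known. The genes tested also include some of lower counts than any of the 9, such as SOX10. Shares over all genes are therefore not a like-for-like background for the 9 genes. The median log2 fold change was -0.13 over the 9 genes and -0.0042 over all genes tested. In all 9 the LacZ and sh60 libraries did not overlap in CPM (counts scaled to a common library size, corrected by TMM), which held for 64.4% of the genes tested.

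Upstream sequences of 4 of the genes that changed are shown first, 2 that rose and 2 that fell. They are the 250 bases before the transcript start in RefSeq on GRCh38.p14, printed on the gene's own strand, and 5 of the 9 genes had an entry. SOX21 lies at chr13:94712546-94712795 on the minus strand, SOX3 at chrX:140505070-140505319 on the minus strand, SOX4 at chr6:21593501-21593750 on the plus strand and SOX12 at chr20:325302-325551 on the plus strand. Capitals mark matches, on either strand, to the CCAAT box (CCAAT, or ATTGG on the other strand), the TATA box (TATAAA, or TTTATA on the other strand) and the octamer bound by OCT4 (ATGCAAAT).
SOX21: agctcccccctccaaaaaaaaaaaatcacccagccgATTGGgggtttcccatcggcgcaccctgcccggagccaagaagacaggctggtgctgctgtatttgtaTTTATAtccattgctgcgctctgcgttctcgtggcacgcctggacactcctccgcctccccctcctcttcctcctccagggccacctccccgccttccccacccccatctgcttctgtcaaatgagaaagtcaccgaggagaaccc
SOX3: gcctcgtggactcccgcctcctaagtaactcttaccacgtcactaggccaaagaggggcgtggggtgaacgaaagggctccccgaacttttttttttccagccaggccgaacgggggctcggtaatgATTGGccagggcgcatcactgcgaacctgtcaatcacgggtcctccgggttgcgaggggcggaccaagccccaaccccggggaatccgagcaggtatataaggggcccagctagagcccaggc
SOX4: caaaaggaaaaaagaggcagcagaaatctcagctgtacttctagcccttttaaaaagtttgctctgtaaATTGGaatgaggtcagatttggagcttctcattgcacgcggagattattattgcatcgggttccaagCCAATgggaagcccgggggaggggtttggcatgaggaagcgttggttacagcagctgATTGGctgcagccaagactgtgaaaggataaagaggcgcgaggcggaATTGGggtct
SOX12: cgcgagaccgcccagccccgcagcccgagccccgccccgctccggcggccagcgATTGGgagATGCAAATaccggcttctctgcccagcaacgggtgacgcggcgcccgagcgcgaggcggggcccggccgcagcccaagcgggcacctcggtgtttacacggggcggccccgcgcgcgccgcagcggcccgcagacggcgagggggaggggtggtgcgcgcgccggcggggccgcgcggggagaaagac

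The motifs were chosen with these sequences in view, so the counts are a description. A CCAAT box was found in 4 of the 5 windows, all but that of SOX13, and SOX4 held 4 of them, while 32.0% of all 35116 RefSeq windows of this length held at least 1. The octamer was found in SOX12 alone among the 5 windows and in 1.63% of all windows. An exact match to TATAAA was found in SOX21 alone among the 5 windows, on the strand opposite to the gene, and in 10.7% of all windows. Variant forms were not counted, such as the tatataag near the end of the SOX3 window. The window of SOX13 held no match to any of these motifs. Neither the SOX core (ACAATG, in 9.29% of all windows) nor the TCF/LEF core (CTTTGAT, in 2.26%) was found in any of the 5. SOX12 had the most CpG dinucleotides, 42, a number reached by 1.38% of windows. SOX3 had 17, SOX21 had 11, and SOX4 and SOX13 had 8 each, against a median of 11. Counting exact matches only, no motif was shared by SOX21 and SOX3 and absent from SOX4, SOX12 and SOX13. SOX15, which rose, and SOX8, which fell, had no window, so this does not describe all risers and fallers.

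Values of single libraries are given throughout in the order replicate 1, replicate 3 for LacZ and replicate 1, replicate 2 for sh60. Library totals ran from 30338285 to 44788461 counts, and 1 count was worth 0.0221 to 0.0333 CPM. BEND3 measured 68.8 and 79.3 CPM in the LacZ libraries and 55.7 and 52.0 CPM in the sh60 libraries (log2 fold change -0.46, SE 0.098, edgeR adjusted p = 0.00168), and its call was lost without LacZ replicate 3 (0.153). The cell type label names a lung carcinoma origin. Of 8 lung markers 7 were under 1 CPM in every library and SFTPB and SCGB1A1 had no reads, while SCGB3A2 measured 13.3 to 16.2 CPM. The 8 embryonal carcinoma markers summed to 3991 and 4181 CPM in LacZ and 3839 and 3824 CPM in sh60, with 1 higher and 3 lower. That sum is mostly LIN28A, POU5F1 and DNMT3B and hides changes of single markers. On average DNMT3B fell from 918 to 559 CPM, TDGF1 from 116 to 82.4 CPM and NANOG from 108.8 to 91.3 CPM. SOX2 rose, and LIN28A, POU5F1, DPPA4 and ZFP42 did not pass. Of 8 blood markers 7 were under 1 CPM in every library, with PTPRC and HBB at 0. Of 8 fibroblast markers 4 rose (COL1A1, COL1A2, LUM and POSTN), THY1 fell from 231 to 182 CPM, and COL3A1, DCN and PDGFRB did not pass. None was at 0. Their sum was 521 and 424 CPM in the LacZ libraries and 911 and 1074 CPM in the sh60 libraries, with COL1A1 at 113 CPM in LacZ and 619 CPM in sh60 on average. Without COL1A1 the sum was 380 and 340 CPM in LacZ and 357 and 390 CPM in sh60, so that the groups overlapped. That sum is mostly THY1 and PDGFRB (87.2 CPM in LacZ and 75.3 CPM in sh60) and hides rises at lower levels. On average COL1A2 rose from 16.6 to 73.4 CPM, LUM from 8.91 to 27.7 CPM and POSTN from 2.08 to 4.13 CPM. The part of fibroblast markers in the SOX differences was not tested. More or fewer cells of a type cannot be told apart from more or less RNA per cell in these samples.

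SOX21 encodes the group B2 repressor of neural progenitors and showed the largest difference of the 9. It lies at chromosome 13, 95361879 to 95364797 (hg19), on the minus strand in 1 exon. It measured 3.11 and 2.66 CPM in the LacZ libraries, from 131 and 80 reads, and 10.0 and 8.79 CPM in the sh60 libraries, from 341 and 398 reads. Both sh60 libraries were therefore well above both LacZ libraries. The means were 2.89 ± 0.317 and 9.40 ± 0.863 CPM (SD, n = 2 each), so that SOX21 rose 3.26-fold (log2 1.69 with an SE of 0.17, edgeR adjusted p = 6.77e-07).

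SOX21-AS1, a long noncoding RNA read from the opposite strand, rose with it. The transcripts are annotated head to head, and the hg19 models leave 172 bases between them. In RefSeq the starts lie 171 bases apart, and the TATA box of the SOX21 window above stands 30 to 25 bases before the start of SOX21-AS1. SOX21-AS1 measured 1.02 and 1.26 CPM in the LacZ libraries and 3.11 and 2.41 CPM in the sh60 libraries. It rose 2.42-fold (log2 fold change 1.28, SE 0.24, edgeR adjusted p = 0.000683). Counting used strand, so reads of the pair were kept apart.

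SOX3 is the group B1 gene closest to SOX2, a factor of neural progenitors and of the pituitary. It lies at chromosome X, 139585152 to 139587225 (hg19), in 1 exon. Its level was 26.8 and 25.8 CPM in the LacZ libraries, against 34.4 and 42.1 CPM in the sh60 libraries. The LacZ libraries lay close together, while the sh60 libraries differed from each other by about as much as the lower of them differed from LacZ. The rise was 1.46-fold, from 26.3 ± 0.707 to 38.3 ± 5.48 CPM (SD, n = 2 each; log2 fold change 0.54, SE 0.11, edgeR adjusted p = 0.00124). SOX2 rose too, from 120.4 and 122.8 CPM to 150.1 and 150.9 CPM.

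SOX15, the group G gene, is expressed in pluripotent cells and muscle progenitors. It lies at chromosome 17, 7491498 to 7493488 (hg19), on the minus strand, inside the span of MPDU1 on the plus strand. It measured 2.45 and 1.70 CPM in the LacZ libraries, from 103 and 51 reads, and 4.64 and 4.75 CPM in the sh60 libraries, from 158 and 215 reads. The LacZ libraries differed from each other more than the sh60 libraries did, with LacZ replicate 1 the nearer to sh60. SOX15 rose 2.27-fold, from 2.07 ± 0.530 to 4.70 ± 0.0780 CPM (SD, n = 2 each; log2 fold change 1.16, SE 0.20, edgeR adjusted p = 0.000288). The log2 fold change was 1.47 without LacZ replicate 1 and 0.94 without LacZ replicate 3, and the call held in both.

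**Figure D1:**
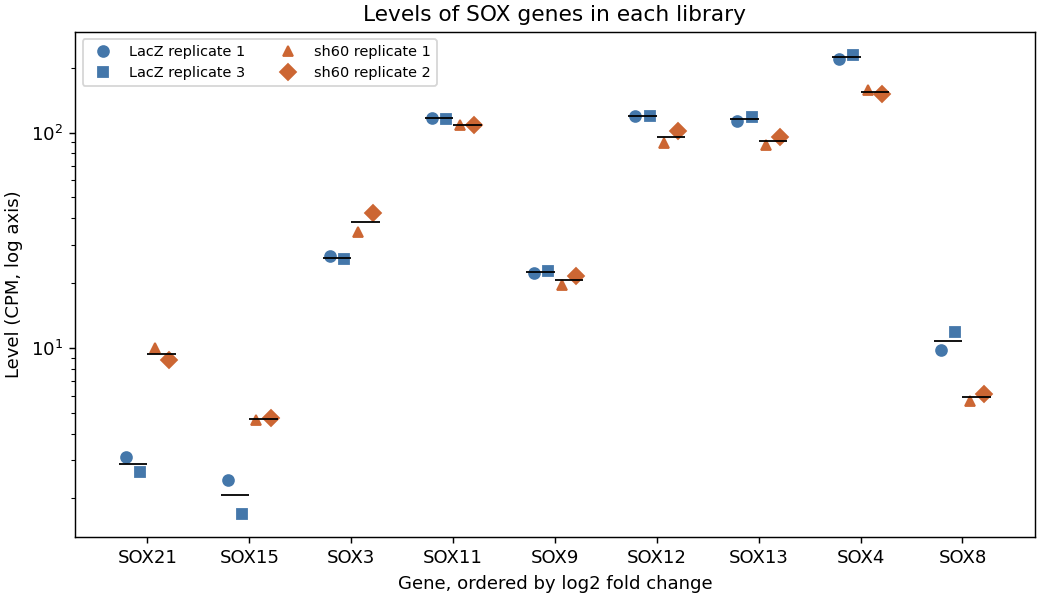
Level of each of the 9 SOX genes (CPM, log axis) in LacZ replicates 1 and 3 (blue) and sh60 replicates 1 and 2 (orange), ordered by log2 fold change, with black lines at the group means. SOX21, SOX15 and SOX3 on the left were higher in both sh60 libraries, and SOX12, SOX13, SOX4 and SOX8 on the right were lower in both.

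Of the group C genes, SOX4 and SOX12 passed as lower and SOX11 did not pass, and differences between the genes were not tested. SOX4, which acts in neuronal and epithelial differentiation, had the most reads of the 9 and was lower in sh60. It lies at chromosome 6, 21593972 to 21598849 (hg19), in 1 exon, and measured 219.3 and 228.8 CPM in the LacZ libraries, against 157.9 and 151.3 CPM in the sh60 libraries. The difference was far wider than the spread within either group. SOX4 fell from 224 ± 6.70 to 155 ± 4.67 CPM (SD, n = 2 each), to 0.690 of its LacZ level (95% confidence interval 0.613 to 0.776; log2 fold change -0.54, SE 0.081, edgeR adjusted p = 7.23e-05).

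SOX12, a weaker activator of the same group, lies at chromosome 20, 306215 to 310872 (hg19), in 1 exon. It went from 119.6 and 119.3 CPM in the LacZ libraries to 89.9 and 101.5 CPM in the sh60 libraries. The LacZ libraries were almost level and the sh60 libraries, both lower, stood apart from each other. The log2 fold change was -0.32 (SE 0.089, edgeR adjusted p = 0.0113). The call was lost without LacZ replicate 1 (-0.31, adjusted p = 0.182) and without LacZ replicate 3 (-0.32, adjusted p = 0.191), and the value moved to -0.21, still called, with GC and length trends removed.

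SOX11, the third gene of the group, lies at chromosome 2, 5832799 to 5841517 (hg19), and is a factor of immature neurons. It measured 117 and 115 CPM in the LacZ libraries, against 109 and 108 CPM in the sh60 libraries. Both sh60 libraries were slightly lower, but the gene missed the threshold (log2 fold change of -0.10 with an SE of 0.084, edgeR adjusted p = 0.411). The 95% confidence interval ran from -0.28 to 0.08 on the log2 scale. With GC and length trends removed it passed as lower, at -0.15 (edgeR adjusted p = 0.0423).

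SOX13, a group D factor that lacks a known activation domain and binds TCF proteins, was lower. It lies at chromosome 1, 204042246 to 204096871 (hg19), in 14 exon blocks. It measured 113 and 118 CPM in the LacZ libraries, against 87.1 and 95.4 CPM in the sh60 libraries, so the gap between groups was wider than the spread in each. The log2 fold change was -0.34 (SE 0.088, edgeR adjusted p = 0.00697). As for SOX12, the call was lost without LacZ replicate 1 (-0.36, adjusted p = 0.106) or LacZ replicate 3 (-0.31, adjusted p = 0.213), and the value moved to -0.22, still called, with GC and length trends removed.

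In group E the paired testis and neural crest genes SOX8 and SOX9 gave different results. SOX8 lies at chromosome 16, 1031808 to 1036979 (hg19), and measured 9.81 and 11.8 CPM in the LacZ libraries, against 5.70 and 6.10 CPM in the sh60 libraries. Every sh60 value was well under the lower LacZ value. SOX8 fell to 0.549 of its LacZ level (95% confidence interval 0.444 to 0.679; log2 fold change -0.87, SE 0.15, edgeR adjusted p = 0.000218).

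SOX9, the main regulator of cartilage and of testis formation, lies at chromosome 17, 70117161 to 70122560 (hg19). It measured 22.4 and 22.7 CPM in the LacZ libraries, against 19.6 and 21.6 CPM in the sh60 libraries. The groups lay close together and SOX9 missed the threshold (log2 fold change of -0.13 with an SE of 0.11, edgeR adjusted p = 0.427). The 95% confidence interval, -0.36 to 0.10 on the log2 scale, does not overlap that of SOX8, -1.17 to -0.56, although the difference between the genes was not itself tested.

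**Figure D2:**
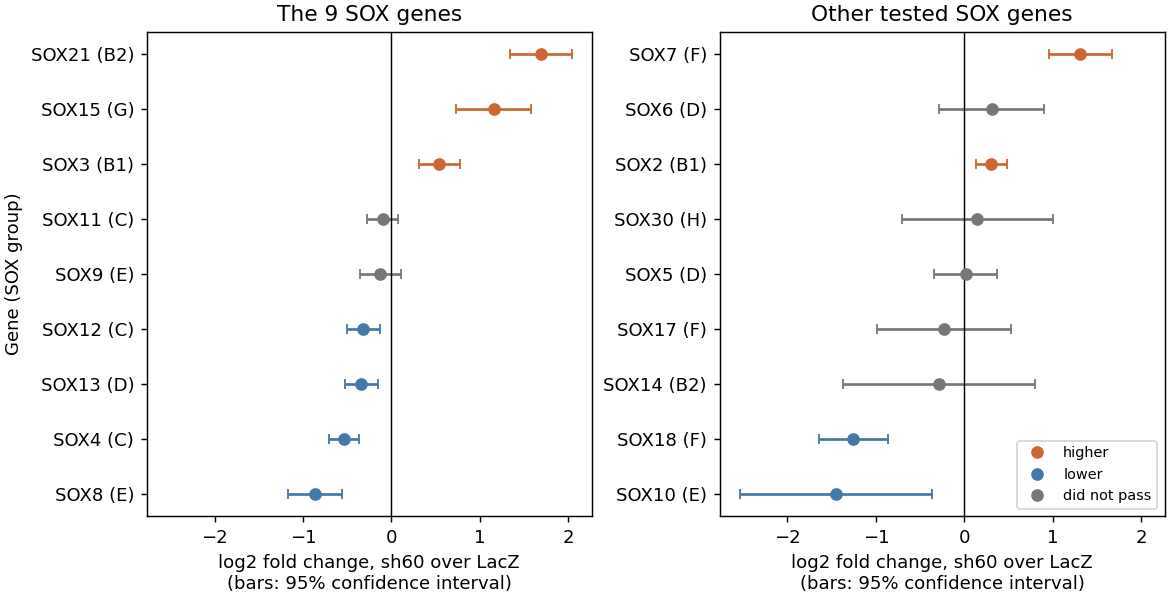
Log2 fold change of sh60 over LacZ with its 95% confidence interval for the 9 SOX genes (left) and the other 9 tested SOX genes (right), with the group letter in brackets and colours for higher, lower and not passed. SOX21 at 1.69 stands highest on the left and SOX8 at -0.87 lowest, and SOX7 and SOX18 of group F lie on opposite sides of 0.

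Of 10 other SOX genes listed, 9 could be tested, 2 rose, 2 fell and 5 did not pass, against 28.8% called over all genes tested (15.8% higher and 13.0% lower). Their median log2 fold change was 0.016. SOX2 rose by a log2 fold change of 0.31 (SE 0.082, edgeR adjusted p = 0.00841). SOX7 and SOX18, both endothelial factors of group F, went opposite ways. SOX7 rose from 3.97 and 3.36 CPM to 8.05 and 10.2 CPM (log2 fold change 1.31, edgeR adjusted p = 1.32e-05), and SOX18 fell from 7.55 and 5.59 CPM to 2.79 and 2.76 CPM (log2 fold change -1.25, edgeR adjusted p = 5.34e-05). In both genes each sh60 library lay outside the LacZ range. SOX10, the neural crest and glial factor of group E, was called lower on few reads, 21 and 14 in LacZ and 3 and 11 in sh60 (log2 fold change -1.45, edgeR adjusted p = 0.0432).

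The calls of SOX2 and SOX10 were lost on leaving out single libraries. SOX2 lost its call on leaving out LacZ replicate 1 (edgeR adjusted p = 0.208) or LacZ replicate 3 (0.189), although its log2 fold change stayed at 0.30 and 0.32. SOX10 was not called without LacZ replicate 1 (0.179), LacZ replicate 3 (0.108) or sh60 replicate 1 (0.242), nor with no count filter (0.0521), and its log2 fold change was -2.41 without sh60 replicate 2. The remaining genes gave wide intervals. SOX5 measured 6.06 CPM in LacZ and 6.20 CPM in sh60, and SOX6 1.00 and 1.23 CPM. SOX17, the endoderm factor, had 1.38 and 0.566 CPM in LacZ and 0.764 and 0.950 CPM in sh60, so that its LacZ libraries spanned both sh60 libraries. SOX14 and SOX30 stayed under 0.6 CPM in every library, and SOX1 had at most 5 reads and was not tested.

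Noncoding RNAs at SOX loci were of low level. SOX2-OT, which spans SOX2 on the same strand, measured 1.63 CPM in LacZ against 2.45 CPM in sh60, short of the threshold (log2 fold change 0.59, edgeR adjusted p = 0.0561). It passed under 4 of 12 alternatives. Reads that lie in exons of both SOX2 and SOX2-OT would not be counted for either under the settings used. SOX9-AS1 had 4 and 10 reads in LacZ and 7 and 5 in sh60 and was not tested.

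Levels were compared between genes per length, as TPM (counts divided by the exon length in the files and scaled to a common sum). In LacZ the order was SOX4 at 115 ± 2.41, SOX13 at 71.2 ± 1.33, SOX12 at 64.4 ± 0.688, SOX11 at 33.5 ± 0.714, SOX3 at 31.8 ± 1.14, SOX9 at 14.4 ± 0.0057, SOX8 at 8.90 ± 1.09, SOX15 at 3.74 ± 0.988 and SOX21 at 2.48 ± 0.295 TPM (SD, n = 2). The ranges of neighbours in this order did not overlap. In sh60 SOX3, at 47.9 ± 5.59 TPM, stood above SOX11, at 32.4 ± 0.999 TPM, and its range overlapped that of SOX12, at 53.4 ± 3.13 TPM. SOX15 at 8.76 ± 0.0874 TPM and SOX21 at 8.39 ± 0.992 TPM overlapped each other and both stood above SOX8, now last at 5.03 ± 0.108 TPM. SOX8 thus went from the seventh place to the last.

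SOX2 was above every one of the 9 genes in both groups, at 122 ± 0.604 TPM in LacZ and 156 ± 3.56 TPM in sh60. The 9 genes summed to 345 and 347 TPM in LacZ replicates 1 and 3 and to 307 and 314 TPM in sh60 replicates 1 and 2. With the 10 other SOX genes included, the sums were 487 and 484 TPM in LacZ and 482 and 484 TPM in sh60. The sum of the 9 was lower in both sh60 libraries while that of the whole family hardly moved. The 10 other SOX genes alone, most of whose sum is SOX2, had 142 and 138 TPM in LacZ and 175 and 170 TPM in sh60. Of the sum of the 9, SOX4 made up 32.9% and 33.8% in LacZ and 28.0% and 25.2% in sh60. SOX3 made up 9.46% and 8.95% in LacZ and 14.3% and 16.5% in sh60.

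**Figure D3:**
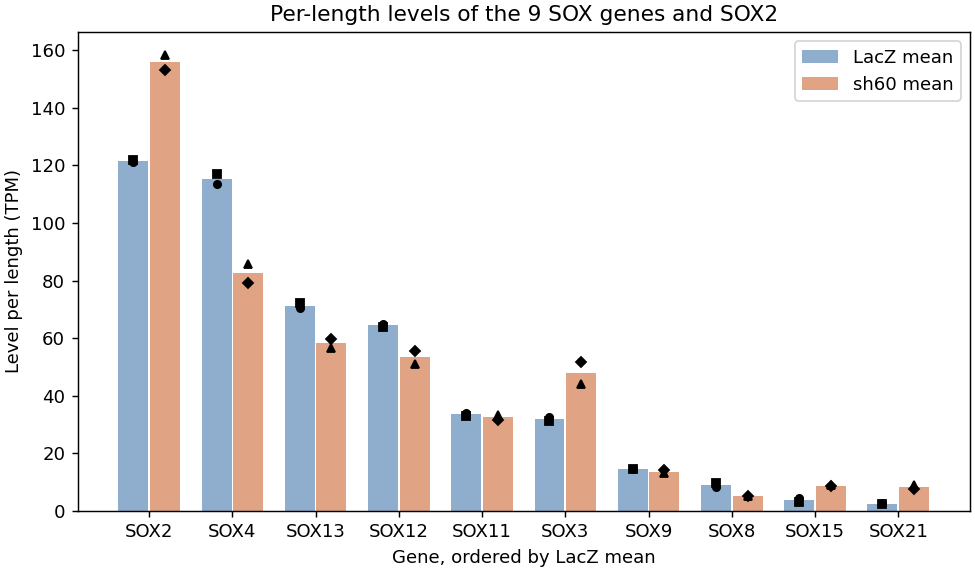
Per-length level (TPM) of the 9 SOX genes and SOX2, ordered by the LacZ mean, with bars at the group means (blue LacZ, orange sh60) and black points for the 2 libraries of each group. SOX2 and SOX4 are nearly level in LacZ at 122 and 115 TPM and part in sh60, at 156 and 82.5 TPM.

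Genomic neighbours were tabulated as the nearest tested gene on each side. Of 18 such genes, 3 were higher, 3 were lower and 12 did not pass, against 28.8% called over all genes. In 5 cases the neighbour was called in the direction of its SOX gene, and no share over all genes was computed for this count. Besides SOX21-AS1, these were LMF1 (0.490 kb away, log2 fold change -0.55, edgeR adjusted p = 0.00270) and CACNA1H (166 kb away, log2 fold change -0.48, edgeR adjusted p = 0.00151) beside SOX8, FXR2 (1.06 kb away, log2 fold change 0.33, edgeR adjusted p = 0.0156) beside SOX15, and LINC00632 (205 kb away, log2 fold change 1.13, edgeR adjusted p = 0.0121) beside SOX3. SOX8 therefore lay between 2 genes that also fell. LMF1, which encodes a lipase maturation factor, held its call in every alternative run. CACNA1H, a calcium channel gene, lost it without LacZ replicate 3 (0.0851), FXR2 without LacZ replicate 1 (0.134) or LacZ replicate 3 (0.268), and LINC00632 without LacZ replicate 3 (0.0906), without sh60 replicate 2 (0.0826) and by DESeq2 (0.0853). LINC01152, 79.7 kb from SOX9, fell (log2 fold change -1.24, edgeR adjusted p = 0.000353) while SOX9 did not pass. MPDU1, whose span holds SOX15, was not counted among the 18. It did not pass (log2 fold change -0.037, edgeR adjusted p = 0.817).

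Genes with the most similar pattern were taken as the 2 with the smallest Euclidean distance to each called SOX gene, over log2 CPM centred on its mean in the 4 libraries, among 11747 genes of average log2 CPM 2 or more. They were ADAM9 (distance 0.040) and SPATA18 (0.12) for SOX21, FN1 (0.047) and TPM1 (0.049) for SOX15, and ATP6V0E1 (0.035) and MYL6 (0.040) for SOX3. For the genes that fell they were OLMALINC (0.027) and MPP2 (0.050) for SOX8, TNFAIP8L1 (0.030) and MCM6 (0.031) for SOX4, CDK9 (0.012) and N6AMT1 (0.019) for SOX12, and ELP5 (0.014) and MCF2L (0.016) for SOX13. The measure covers 4 libraries in 2 groups.

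Other HMG-box factors, targets and partners of SOX proteins were counted from 6 lists. Together they held 77 genes, of which 71 were tested, 20 rose and 17 fell, with a median log2 fold change of 0.045. The share that passed over all genes tested was 28.8%, as above, and the lists too were chosen with earlier results of these data known. Of 11 other HMG-box factors 5 rose and 2 fell, with a median of 0.25. The WNT-pathway factors of this list split. TCF7 fell from 84.6 to 42.5 CPM (log2 fold change -0.99, SE 0.097, edgeR adjusted p = 6.56e-07) and LEF1 from 64.4 to 43.7 CPM, while TCF7L1 rose from 38.5 to 57.8 CPM. HBP1, a repressor of cell cycle genes, rose from 23.8 to 33.2 CPM. The other risers, which like the further list genes below were singled out after their values were seen, were TCF7L2 (33.1 to 44.4 CPM), BBX (71.4 to 87.1 CPM) and TOX (2.65 to 4.31 CPM). The number of risers was 3 without LacZ replicate 1 and 2 without LacZ replicate 3, and without the latter HBP1 was not called (0.0642).

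Of 12 targets and partners of SOX2 and SOX3, 5 rose, 3 fell and 4 did not pass, with a median log2 fold change of 0.013. SPP1, which encodes osteopontin, rose from 221 to 563 CPM (log2 fold change 1.35, SE 0.10, edgeR adjusted p = 4.12e-08). NES, which encodes the progenitor filament nestin, rose from 391 to 518 CPM and POU3F2, a neural partner of SOX factors, from 0.860 to 2.09 CPM. FGF4, a classical target of SOX2 with OCT4, fell from 10.6 to 4.83 CPM (log2 fold change -1.13, SE 0.14, edgeR adjusted p = 1.05e-05). LEFTY1 (16.9 to 25.2 CPM) and PAX6 (0.126 to 0.449 CPM) also rose, and the pluripotency factors NANOG (108.8 to 91.3 CPM) and SALL4 (139.7 to 112.9 CPM) also fell. PAX6 was called on few reads, 5 and 4 in LacZ and 14 and 22 in sh60. The list had 4 risers by DESeq2 and under the filter of 1 CPM in 2 libraries. SOX2 and SOX3 were higher in the same libraries in which FGF4 was lower. Without LacZ replicate 3, 2 rose and 1 fell, with NES not called (0.0507). Leaving out LacZ replicate 1 gave 4 that rose and 1 that fell.

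Of 9 listed targets of group C, 7 were tested, 4 rose and 1 fell, with a median log2 fold change of 0.41. MAP2, a neuronal microtubule protein, rose from 62.1 to 114 CPM (log2 fold change 0.87, SE 0.091, edgeR adjusted p = 1.39e-06). TUBB3, the neuronal tubulin, rose from 142 to 189 CPM and INSM1, a neuroendocrine factor, from 0.686 to 1.65 CPM. STMN2 was called higher at a low level, 0.162 and 0.603 CPM. TEAD2, the list's one call in the direction of SOX4 and SOX12, fell from 73.7 to 44.9 CPM (log2 fold change -0.71, SE 0.095, edgeR adjusted p = 2.02e-05). Without LacZ replicate 3, 1 rose, and TUBB3 (0.193) and INSM1 (0.118) were not called. INSM1 was also not called without sh60 replicate 2 (0.0515), and its log2 fold change ran from 0.76 without LacZ replicate 3 to 2.04 without LacZ replicate 1. That of TUBB3 was 0.27 without sh60 replicate 2.

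Of 15 cartilage targets of SOX9, 14 were tested, 2 rose and 4 fell, with a median log2 fold change of 0.0039. MATN3, a cartilage matrix protein, fell from 28.7 to 7.29 CPM (log2 fold change -1.98, SE 0.13, edgeR adjusted p = 1.21e-08), COL9A2 from 31.6 to 20.1 CPM and ACAN, which encodes aggrecan, from 4.87 to 2.48 CPM. COL11A1 rose from 26.9 and 12.4 CPM in the LacZ libraries to 62.2 and 60.4 CPM in the sh60 libraries (log2 fold change 1.62, SE 0.20, edgeR adjusted p = 9.50e-06). The LacZ libraries differed widely for this gene. HAPLN1 also rose (11.5 to 15.5 CPM), and COMP fell at a low level (0.551 to 0.213 CPM). COL2A1, chosen after its value was seen as the best known of these targets, measured 69.9 CPM in LacZ and 69.3 CPM in sh60 and did not pass. Without LacZ replicate 3, 1 rose.

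Of 18 neural crest genes 16 were tested, 2 rose and 5 fell, with a median log2 fold change of -0.0080. MSX1, a homeobox gene of the neural plate border, fell from 171 to 77.7 CPM (log2 fold change -1.14, SE 0.084, edgeR adjusted p = 4.12e-08). SNAI1, which drives the loss of epithelial junctions, fell from 43.5 to 16.1 CPM, NGFR, a neurotrophin receptor, from 6.28 to 3.01 CPM and SNAI2 from 36.6 to 25.3 CPM. SOX10 is also in this list. TFAP2A (10.8 to 14.0 CPM) and MITF, the pigment cell factor (1.77 to 3.01 CPM), rose. Both lost their call by DESeq2 and on leaving out LacZ replicate 3 or sh60 replicate 1, and 3 fell without LacZ replicate 1, with SNAI2 not called (0.0546).

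Of 12 gonad genes linked with SOX9 and SOX8, 11 were tested, 2 rose and 2 fell, with a median log2 fold change of 0.064. FOXL2, the ovarian factor that opposes SOX9, rose from 1.52 to 5.87 CPM (log2 fold change 1.94, SE 0.20, edgeR adjusted p = 1.46e-06) and WNT4, another ovarian gene, from 0.594 to 1.26 CPM. GATA4 fell from 25.3 to 14.7 CPM and WT1, a factor of the early gonad, from 2.16 to 0.651 CPM. WNT4 was not called without LacZ replicate 3 (0.108), without sh60 replicate 2 (0.172) or by DESeq2 (0.111), which left 1 riser in each. With upper-quartile scaling, with no count filter or with GC and length trends removed, 4 fell.

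**Figure D4:**
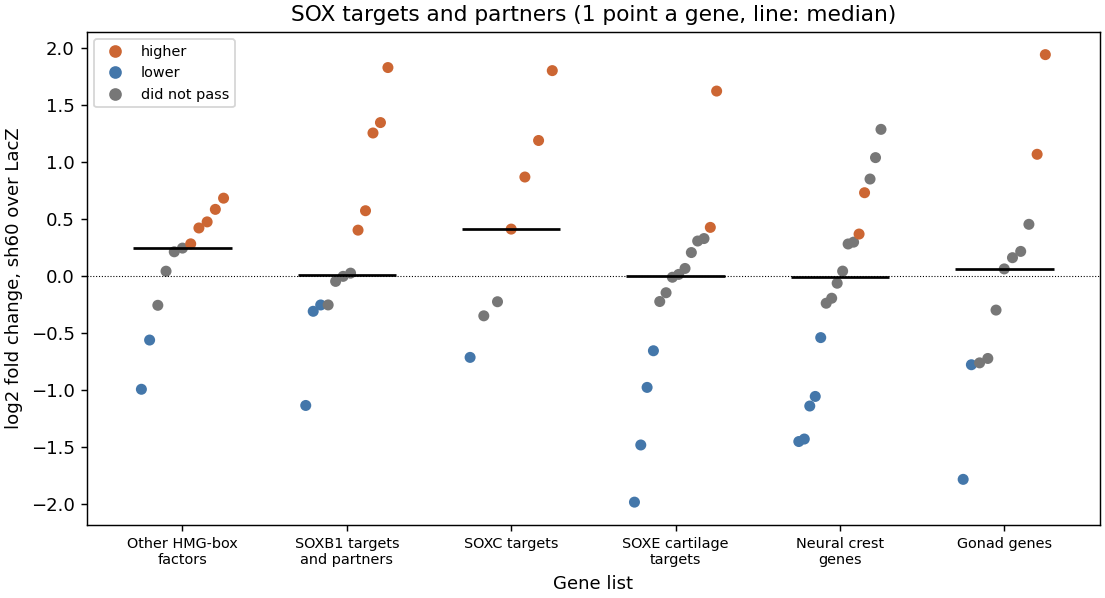
Log2 fold change of sh60 over LacZ for every tested gene of 6 lists of HMG-box factors and of SOX targets and partners, 1 point a gene, coloured by call, with a black line at the median. Each list has genes called in both directions, and the medians lie between -0.0080 and 0.41.

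LacZ replicate 1 lay nearer to sh60 than LacZ replicate 3 on the first principal component of log2 CPM, which held 76.0% of the variance (scores of -25.4 and -38.9, with sh60 at 32.7 and 31.7). In 6 of the 7 called SOX genes LacZ replicate 1 was also nearer to sh60, SOX12 being the exception. All 7 kept their sign in the fits that left out 1 library, and 5 of them, SOX3, SOX4, SOX8, SOX15 and SOX21, kept their call in each of the 12 alternatives run. The GC content of the 9 transcripts ran from 47.7% in SOX11 to 63.8% in SOX8, and SOX11 alone was under the median of 48.6% over tested genes.

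**Figure D5:**
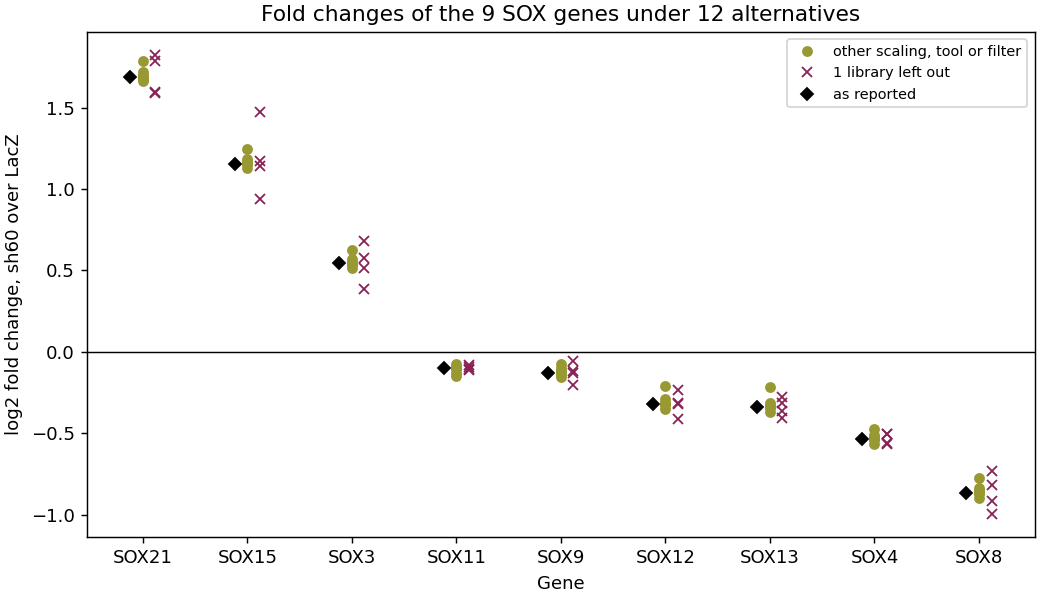
Log2 fold change of sh60 over LacZ of the 9 SOX genes as reported (black), under other scalings, tools, filters or a GC and length correction (olive), and with 1 library left out (crosses). All values of a gene keep to one side of 0, and the widest spread is that of SOX15, from 0.94 to 1.47.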

How the data were processed

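The deposited values were raw counts, whole numbers of reads per gene, 1 table per library. The submitters' processing notes name STAR 2.7.6a and the build hg19 (GRCh37). Per the file headers the authors counted reads over exons with featureCounts of Subread 2.0.0 at strand setting 2, with no option set for multi-mapped or multi-gene reads, which the default leaves out. The kit, per the labels, was a stranded mRNA one, and reads were single-end. Groups and replicate numbers came from the library titles, where the number after the S was read as the replicate, although it may be a library index.

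From the counts, TMM-scaled CPM, TPM and edgeR 4.0.16 quasi-likelihood tests (R 4.3.3) were computed, with the group as the only term, filterByExpr (16040 of 26364 genes kept) and Benjamini-Hochberg adjustment over all genes kept. CPM and TPM were computed here. The common biological coefficient of variation was 7.33%, and the chi-square per degree of freedom between replicates was 5.89 (LacZ) and 15.8 (sh60), so no library repeated another. The script was tested on simulated data. The alternatives tried were upper-quartile scaling, DESeq2 size factors, library totals, DESeq2 1.42.0, limma-voom (limma 3.58.1), no count filter, 1 CPM in 2 libraries, each library left out, and removal of loess trends on GC content (from the longest GENCODE transcript of a symbol, known for 94.2% of the genes tested) and exon length.

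The members and lists were chosen with earlier results of these data known. All 9 SOX genes, BEND3, other SOX genes with 10 counts in any library, and up to 4 called genes of smallest p per list were named, with nearest tested neighbours, antisense transcripts and the 2 most similar genes. Promoter sequences are from RefSeq on GRCh38.p14, and motifs were chosen with those sequences in view. Their coordinates were not mixed with the hg19 coordinates of the files.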

Additional observations from a re-analysis of the deposited data

How the results depend on the processing

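Under 12 alternatives the 9 SOX genes kept their direction, and 3 rose in every one. With 1 library left out, the number that fell ran from 2 to 4, with 2 without LacZ replicate 1 or 3, the number of other SOX genes called from 2 to 4, the number called in the 6 lists from 21 to 35 against 37 with all libraries, and the number called over all genes from 2287 to 5486. These fits leave 1 library in a group, which is assumed to vary like the other group. Over 62 single genes and 735 values, 687 kept direction and call, 26 lost the call, 9 gained it and 13 turned sign. The genes that turned had not passed. SOX5 turned to -0.013 with upper-quartile scaling, -0.013 by limma-voom and -0.0035 with GC and length trends removed, and ran from -0.21 to 0.23 with 1 library left out. On leaving out 1 library, SOX14 ran from -0.78 to 0.017, SOX17 from -0.67 to 0.61, SOX30 from -0.012 to 0.32, and the neighbours LOC389895 from -0.095 to 0.60, LOC400940 from -0.0078 to 0.51 and NRSN2-AS1 from -0.44 to 0.38 (0.025 by limma-voom). The cause was not tested. Of the tested SOX genes, SOX10, SOX14, SOX17 and SOX30 fall out under the filter of 1 CPM, and SOX10 and SOX14 have no adjusted p by DESeq2. No paired analysis was run, because LacZ and sh60 share only replicate number 1. These numbers were read from the library titles and may be library indices instead. At 51 to 131 reads a LacZ library, SOX15 and SOX21 rest on fewer counts than the other 7 genes.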
